A study of Ovis aries with 18 samples.

Results

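The miRNAs of 2- vs. 12-month-old sheep testes were described across all rows of the miRNA count table that had 10 or more counts in at least 3 of the 6 libraries of these ages. This rule kept 1182 of the 7146 listed miRNAs. Each library came from the left testis of 1 Small Tail Han ram, with 3 different rams at 2 months and 3 at 12 months and no treatment. The testis was removed by surgery and frozen, and small RNA was read on an Ion Proton instrument. A further 3 rams of 6 months entered the same model and are given as levels. The p-values measure the spread between rams. The question was which miRNAs kept all 3 rams of one age apart from all 3 of the other, and which differences came from a single ram.

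A miRNA is a short RNA that pairs with messages through its seed, bases 2 to 8 from its 5′ end, and lowers their translation or stability. In the growing testis the germ cells pass from spermatogonia through meiosis to spermatids, while Sertoli cells, Leydig cells and the smooth-muscle-like peritubular cells around the tubules mature. Each cell type has miRNAs of its own, so in whole tissue fewer cells of a type and less RNA per cell cannot be told apart. Of the 1182 rows, 865 were predicted from the sheep genome and are called here by the running name of their precursor, such as chr5_11922, which is not a position. Another 190 were matched to a human, mouse or rat miRNA, with the prefix hsa, mmu or rno. The rest were known sheep miRNAs, with the prefix oar. All rows are called miRNAs as they were listed, and whether a predicted or matched row was a true miRNA was not tested.

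Levels are CPM, counts divided by library size, after upper-quartile scaling, which sets the libraries level at the upper quartile of their counts. Library totals were 575449, 2356020 and 1944556 counts at 2 months and 1400436, 454517 and 5710499 at 12 months. A level of 3 counts equalled 0.61 to 6.36 CPM in these 6 libraries, which covers counting error only.

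The rams did not all match their labelled age in the germ cell mRNAs measured from the same testes. The sum over 8 spermatid genes was 4221, 40.64 and 180.1 CPM at 2 months and 4730, 4520 and 46.26 CPM at 12 months. For TNP1, which packs DNA in elongating spermatids, the levels were 783, 2.06 and 25.9 CPM at 2 months and 942, 735 and 2.07 CPM at 12 months. The library labelled 2-month replicate 1 was therefore as high as the 12-month rams, and the library labelled 12-month replicate 3 was as low as 2-month replicates 2 and 3. Sertoli markers were present in all 6 libraries, with summed levels of 5019, 13700 and 8042 CPM against 2624, 5116 and 10910 CPM. The 6 Leydig markers, among them the steroid enzyme CYP17A1, summed to 204.9, 500.2 and 692.4 CPM against 73.1, 94.5 and 358.8 CPM. Of these, 3 followed the labels, with STAR, CYP11A1 and CYP17A1 lower in every 12-month ram than in every 2-month ram. For CYP17A1 the levels were 65.5, 162 and 169 CPM against 24.2, 43.9 and 61.4 CPM. INSL3, HSD3B1 and LHCGR overlapped between the ages.

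The miR-34 and miR-449 family, which rises with meiotic and later germ cells, did not order the rams by their labels either. The sum over its 13 rows was 88940, 7952 and 29860 CPM at 2 months and 40930, 106800 and 16220 CPM at 12 months. None of the 13 rows separated the ages. Its member miR-34c-5p (chr15_26272) had 20867, 1652 and 6276 CPM against 10982, 27600 and 4247 CPM. In the sum and in miR-34c-5p, 2-month replicate 1 lay above 12-month replicates 1 and 3. Groups were kept as labelled in all values that follow, and values without these 2 libraries are given for the leading miRNAs.

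**Figure D1:**
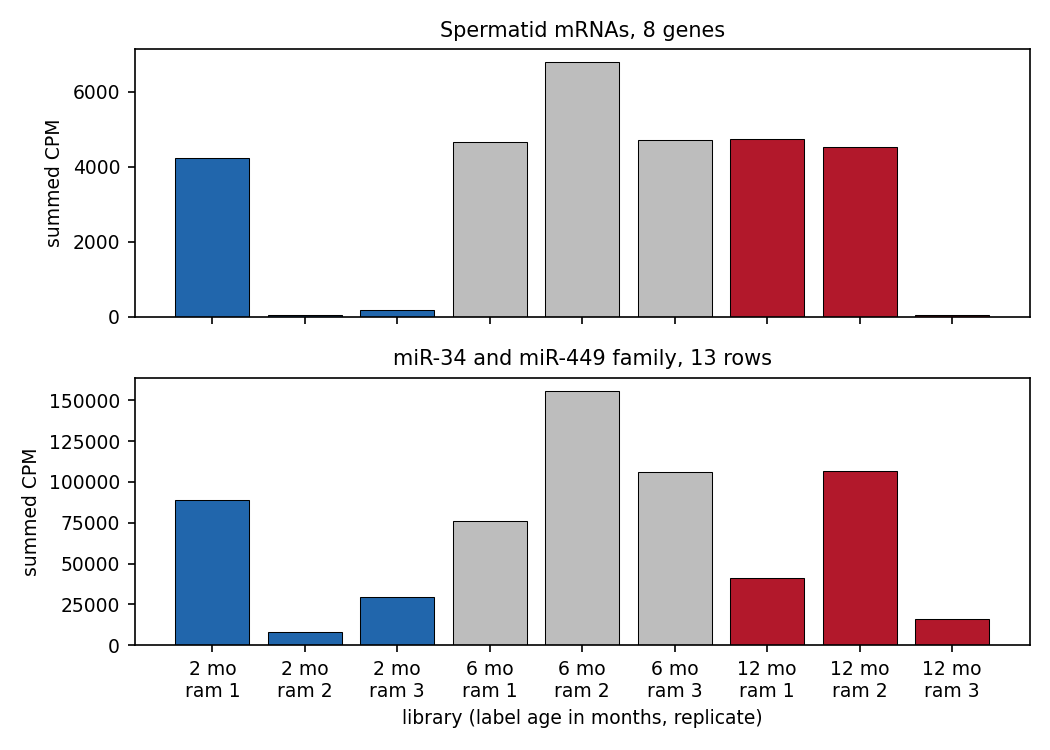
Summed levels of 8 spermatid mRNAs (top) and of the 13 rows of the miR-34 and miR-449 family (bottom), in CPM, with 1 bar per ram, blue for 2, grey for 6 and red for 12 months. In both panels 2-month ram 1 stands high and 12-month ram 3 stands low.

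The sequences below are those of the miRNAs on which the age differences turned, as listed in the deposited table, with the seed in capitals. The first 5 are miR-143 and miR-145 rows whose ages separated as higher at 12 months, and they fall into 2 seeds. The other such row, chr3_7348, lists the same sequence as chrx_42441. The next is the largest higher fold change, the 5 after it are lower at 12 months, and oar-miR-200a, at the end, was carried by a single ram.
oar-miR-143: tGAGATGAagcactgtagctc
rno-miR-143-3p: tGAGATGAagcactgtagctca
chr5_11922 (miR-145-5p): gTCCAGTTttcccaggaatccc
chrx_42441 (miR-145-5p): gTCCAGTTttcccagga
chr10_18739 (miR-145-5p): gTCCAGTTttcctaggaat
chr12_22667 (miR-205): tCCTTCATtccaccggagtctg
hsa-miR-6820-3p: tGTGACTTctcccctgccacag
mmu-miR-3968: cGAATCCCactccagacacca
chr11_20987 (miR-497-5p): cAGCAGCAcactgtggtttg
oar-miR-411b-3p: tATGTCACatggtccactaat
chr2_5559: cAGGTCCCtgttcgggtgcc
oar-miR-200a: aACACTGTctggtaacgat

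Of the 1182 miRNAs, 0 (0.0%) were called by the quasi-likelihood test of edgeR, which required a Benjamini-Hochberg adjusted p under 0.05 and a change of over 1.5-fold. The smallest adjusted p was 0.682. At an unadjusted p under 0.05 there were 52 miRNAs (4.4%), 37 higher (3.13%) and 15 lower (1.27%) at 12 months. DESeq2 called 2 (0.169%), the miR-145-5p row chrx_42441 and hsa-miR-6820-3p. It gave no adjusted p for some miRNAs, among them oar-miR-200a and chr12_22667 (miR-205), which it could not call. The account that follows is therefore a description of levels, in which separating means that the 3 rams of one age did not overlap the 3 of the other. Since the description was built on these levels, no test is attached to the separation itself.

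The ages separated for 85 miRNAs (7.19%), of which 32 (2.71%) were higher and 53 (4.48%) lower at 12 months. With so few rams a side, some miRNAs separate without any age difference. The shares given here were not compared with that background, so they do not by themselves show an age difference. The balance between directions depended on the scaling. As a share of all tested, 2.96% were higher and 4.74% lower with TMM scaling, 3.98% and 3.89% with median-of-ratios scaling, and 0.931% and 18.2% with library totals alone, which moved the median log2 fold change of all miRNAs from 0.0151 to -0.44. With edgeR's own filter by age in place of the count minimum it was 4.54% and 2.79%. With 2-month replicate 1 and 12-month replicate 3 left out, which makes separation easier to meet, it was 16.4% and 28.0%. Separation held under all 4 scalings for 11 of the higher and 39 of the lower miRNAs. Library totals alone kept 34.4% of the higher and 98.1% of the lower, while median-of-ratios scaling kept 93.8% and 75.5%. The 2 counts therefore do not rank the directions. The 11 higher ones that held included oar-miR-143, chr5_11922, chr3_7348 and chrx_42441 of miR-145-5p, miR-205, the miR-628 star arm and mmu-miR-1957a.

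**Figure D2:**
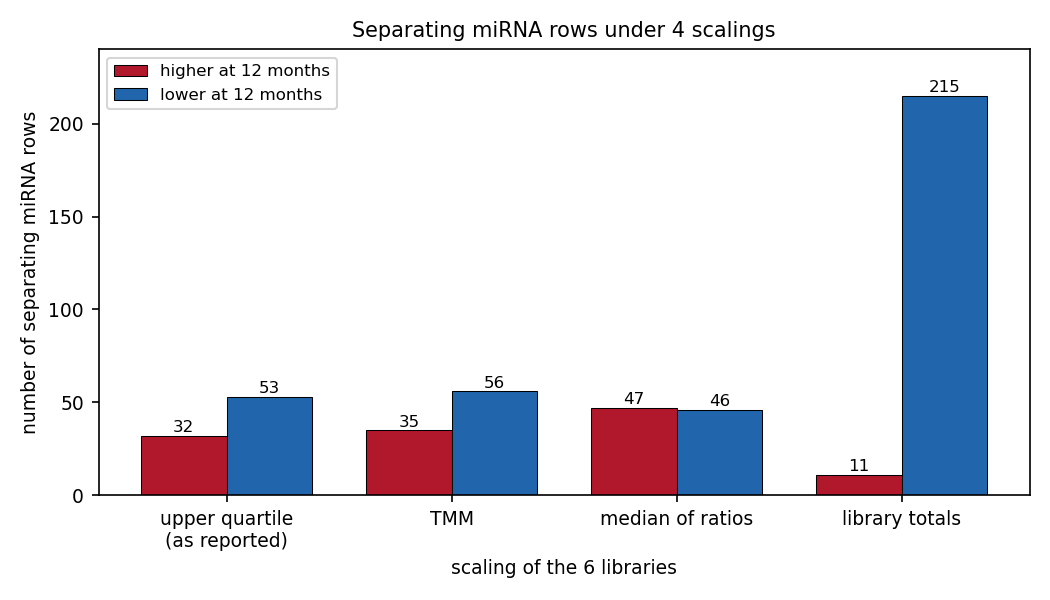
Number of separating miRNA rows, higher (red) or lower (blue) at 12 months, under 4 scalings of the 6 libraries. The share that was higher ran from 4.87% with library totals to 50.5% with median of ratios, against 37.6% as reported.

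**Figure D3:**
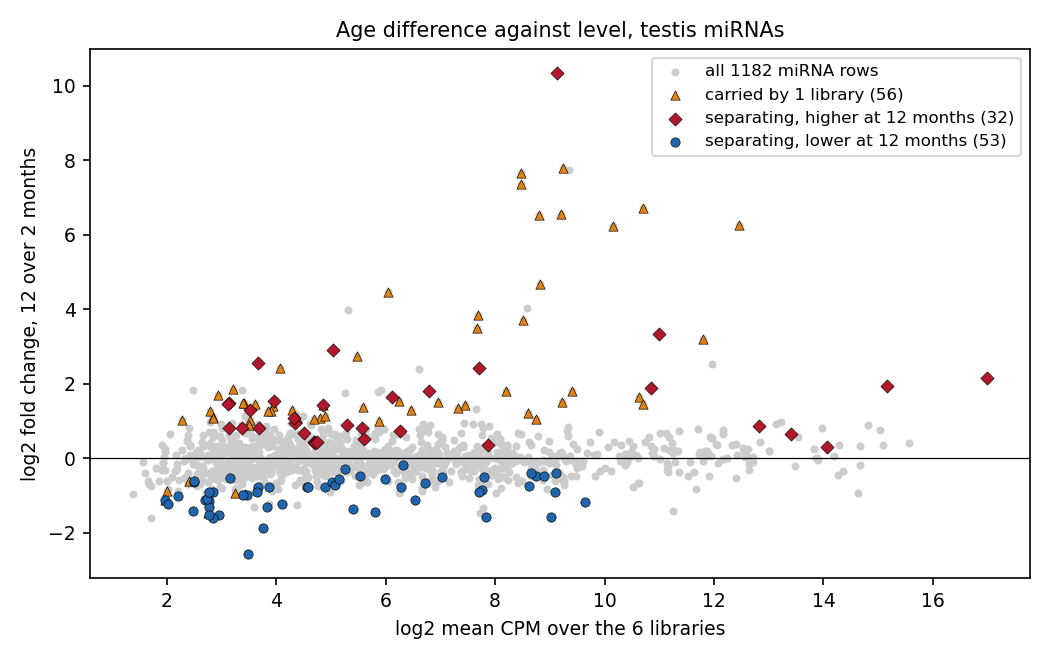
Log2 fold change of 12 over 2 months from edgeR (vertical) against log2 mean CPM of the 6 libraries (horizontal) for 1182 miRNA rows. Separating rows lie on both sides of 0, while most of the 56 rows carried by 1 library (triangles) lie above it.

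The miR-143 and miR-145 rows were the main group that was higher at 12 months. Both miRNAs come from 1 primary transcript and are known for the contractile state of smooth muscle. Of the 8 rows of this list, 6 separated as higher, beside 2.71% of all miRNAs. All 8 had a log2 fold change above 0, with a median of 2.04. Several of the rows list the same or closely alike sequences, so these are not 8 separate observations. By the definition given below, 3 of the 8 were carried by 1 library, beside 4.74% of all miRNAs, namely chr10_18739, which also separated, rno-miR-145-5p and miR-145-3p. The level of oar-miR-143 was 11859, 15846 and 18066 CPM at 2 months and 114945, 21581 and 37664 CPM at 12 months. Its log2 fold change was 1.93 ± 0.57 (SE, n = 3 per age; edgeR adjusted p = 0.682). The lowest 12-month ram lay above the highest 2-month ram, and replicate 1 stood above the other two 12-month rams. The miR-145-5p row chr5_11922 behaved alike, with 35376, 51538 and 57111 CPM against 420378, 75288 and 140723 CPM. Without 12-month replicate 1 the log2 fold changes were 0.96 for oar-miR-143 and 1.17 for chr5_11922.

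The shorter miR-145-5p rows differed by more. The row chrx_42441 had 371.2, 297.1 and 442.1 CPM at 2 months against 7764, 1128 and 2287 CPM at 12 months. Its log2 fold change was 3.33 ± 0.81 (SE, n = 3 per age; edgeR adjusted p = 0.682, DESeq2 adjusted p = 0.0348). The row chr3_7348 had 46.9, 79.7 and 68.7 CPM against 718, 125 and 212 CPM. These rows list the same 17-nt sequence, which is also the start of the 22-nt chr5_11922, so how reads were split among them is uncertain. The same holds for rno-miR-143-3p, which is oar-miR-143 with 1 more base and had 11.7, 3.84 and 8.48 CPM against 127.4, 12.7 and 32.8 CPM. The 6 rows with the miR-145-5p seed list closely alike sequences and are not 6 separate observations. Of them, 4 separated and all 6 had fold changes above 0, from 1.28 to 3.33 on the log2 scale. Without 12-month replicate 1 the values were 2.21 for chrx_42441, 1.37 for chr3_7348, 0.41 for chr10_18739 and 0.44 for rno-miR-145-5p. Of the others, chr15_26933 overlapped because 12-month replicate 2, at 1147 CPM, lay below 2 of the 2-month rams. The opposite arm, miR-145-3p, had 63.8, 178 and 152 CPM against 1018, 148 and 204 CPM, so that its difference rested on 12-month replicate 1.

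Messages of smooth muscle moved with 1 of the 12-month rams. The sum of ACTA2, MYH11, TAGLN and CNN1 was 483, 1332 and 1017 CPM at 2 months and 5100, 614 and 1232 CPM at 12 months. It was highest of the 6 in 12-month replicate 1, while replicates 2 and 3 lay within the 2-month range. The 6 separating miRNA rows lay outside that range by the way they were chosen, so the 2 kinds of RNA are not compared on this point. The part of smooth muscle content in the miRNA difference was not tested.

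The other miRNAs that were higher at 12 months included widely expressed ones with small differences. The level of oar-miR-191 was 16343, 15933 and 13813 CPM against 19611, 16838 and 20870 CPM. Its log2 fold change was 0.31 ± 0.30 (SE). Under library totals this value turned to -0.16. For oar-miR-30d the levels were 8390, 9368 and 7752 CPM against 19189, 9689 and 11188 CPM. For oar-miR-103, of the family known for its part in insulin signalling, they were 4333, 5840 and 5202 CPM against 15207, 6293 and 6536 CPM. In oar-miR-30d and oar-miR-103 replicate 1 of 12 months was again the highest. With it left out, the log2 fold changes were 0.30 and 0.32, and none of the 3 separated under library totals.

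A difference not led by that ram was seen in chr20_36313, with 1220, 947.3 and 202.96 CPM against 3244, 4158 and 1297 CPM. For mmu-miR-1957a the levels were 59.9, 52.0 and 36.1 CPM against 241, 165 and 111 CPM, with a log2 fold change of 1.81. Here 12-month replicate 1 was again the highest, though replicates 2 and 3 also lay above the 2-month rams. Both arms of the miR-628 precursor chr7_14246 separated, the 5p arm with 26.0, 43.1 and 30.3 CPM against 214, 59.4 and 43.5 CPM. The 5p arm's log2 fold change of 1.66 became 0.61 without 12-month replicate 1. The nearest rams of the 2 ages in the 5p arm, at 43.1 and 43.5 CPM, almost met. The identical 18-nt star sequence listed for 5 precursors, with the seed GTACGGG, separated in 3 of them, at levels under 30 CPM.

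The row with the largest fold change, chr12_22667 (miR-205, a miRNA of basal epithelial cells), separated on very few counts. It had 1, 0 and 3 counts at 2 months and 2979, 27 and 12 counts at 12 months. The corresponding levels were 1.30, 0.00 and 1.34 CPM against 3300, 57.2 and 2.44 CPM. The fitted log2 fold change of 10.34 depends on the prior count of the model and is not a bound. Without 12-month replicate 1 it was 4.96. Replicate 3 of 12 months, with 12 counts in the deepest library, lay barely above the 2-month rams.

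Among the miRNAs that were lower at 12 months, hsa-miR-6820-3p had the largest fold change. Its levels were 14.3, 27.7 and 15.2 CPM at 2 months and 5.54, 2.12 and 2.24 CPM at 12 months. The log2 fold change was -2.56 ± 0.59 (SE, n = 3 per age; edgeR adjusted p = 0.682, DESeq2 adjusted p = 0.0368). The 12-month levels stood on 5, 1 and 11 counts. The rams of 6 months, at 17.8, 40.8 and 23.7 CPM, lay with or above the 2-month rams. For mmu-miR-3968 the levels were 78.1, 100 and 69.1 CPM against 29.9, 19.1 and 39.5 CPM, with a log2 fold change of -1.45 ± 0.37 (SE). Over the 6 fits that lacked 1 ram, the change on the log2 scale ran from -3.08 to -2.19 for hsa-miR-6820-3p and from -1.73 to -1.24 for mmu-miR-3968.

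Both arms of miR-497, a miRNA known to restrain cyclins and the cell cycle, were lower. The 5p arm (chr11_20987) had 512, 1019 and 793 CPM at 2 months against 232, 89.0 and 456 CPM at 12 months. The 3p arm had 271, 466 and 286 CPM against 105, 36.0 and 200 CPM. The log2 fold changes were -1.57 ± 0.61 and -1.57 ± 0.55 (SE), and all 3 rams of 6 months lay with the 2-month rams in the 5p arm. The arms come from 1 precursor and are not independent. With the 2 libraries that went against their labels left out, the values were -2.49 and -2.39. The neighbouring precursor chr11_20985 of miR-195-5p, which belongs to the same seed family, had 2317, 5159 and 3210 CPM against 757.8, 354.1 and 2904 CPM. It overlapped because 12-month replicate 3 lay within the 2-month range.

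A pair of members of the DLK1-DIO3 cluster, an imprinted group of miRNAs expressed in embryonic and somatic tissue, were lower at 12 months. For oar-miR-411b-3p the levels were 14.3, 9.81 and 12.0 CPM against 2.22, 2.12 and 5.90 CPM. In 12-month replicates 1 and 2 these lay under the level of 3 counts, which was 3.32 and 6.36 CPM. The log2 fold change of -1.53 became -2.27 without the 2 libraries that went against their labels. At 12 months that value rests on the levels of replicates 1 and 2 alone. For oar-miR-496-5p the levels were 13.0, 8.95 and 11.6 CPM against 5.54, 0.00 and 3.87 CPM. The 0 was met in 12-month replicate 2, where 3 counts equal 6.36 CPM. Only 2 of the 78 tested rows of the cluster separated, both lower, beside 4.48% of all miRNAs. The median log2 fold change of the cluster was -0.18.

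Further miRNAs that separated as lower covered a wide range of levels. For chr7_15128 these were 940, 1308 and 1071 CPM against 401.1, 298.9 and 780.1 CPM. The log2 fold change was -1.16, and it was -1.76 without the 2 libraries that went against their labels. Among named ones, mmu-miR-664-3p had 10.4, 12.4 and 7.58 CPM against 3.32, 4.24 and 3.26 CPM. In 12-month replicates 1 and 2 these were no higher than the level of 3 counts, 3.32 and 6.36 CPM. The levels of miR-7a-5p (chr18_31368), known from endocrine cells, were 245, 333 and 264 CPM against 82.0, 154.8 and 228.7 CPM. For miR-7a-5p the log2 fold change of -0.85 became -0.55 without 12-month replicate 1 and -1.34 without the 2 libraries. A member of the miR-17-92 clusters of proliferating cells, miR-20a-5p (chr10_19300), had 648.6, 627.96 and 620.5 CPM against 246, 608 and 578 CPM. Its log2 fold change of -0.40 became -0.09 without 12-month replicate 1.

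Of the lower rows, 4 shared the 16-base run caggtccctgttcggg. They are chr2_5559, chr9_18579 and chr9_18633, which list the same sequence, and chr1_1165. Their summed level was 134.1, 135.99 and 114.6 CPM at 2 months against 59.8, 29.7 and 50.9 CPM at 12 months. In the 6-month rams it was 56.7, 334.3 and 106.9 CPM, which spans both ages. Because the sequences are alike, these are not 4 separate observations.

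A run of precursors on the X chromosome that holds miR-508-5p, a member of the fast-changing X-linked miRNAs of the testis, was mostly lowest in 1 of the 12-month rams. The group was chosen after its values were seen. All 12 of its tested rows had a log2 fold change below 0, from -1.12 to -0.37, with a smallest unadjusted p of 0.104, and 3 separated, beside 4.48% of all miRNAs. The rows came from 8 precursors, some of which list the same sequence, so they are not 12 separate observations. The level of miR-508-5p (chrx_43477) was 525, 819 and 802 CPM against 130.7, 493.99 and 516.6 CPM. For miR-508-5p the log2 fold change was -0.91, and it was -0.50 without 12-month replicate 1 and -1.38 without the 2 libraries that went against their labels. The other tested miRNA of the X-linked list, rno-miR-463-3p, had a log2 fold change of -0.03. In 10 of the 12 rows, 12-month replicate 1 was the lowest of all 9 libraries. Of the genome-predicted miRNAs that were lower, 7 of 36 (19.4%) were named from the X chromosome, against 11.6% of all 865 tested, while of the higher ones 2 of 24 (8.33%) were. The 7 include the 3 separating rows of this run.

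**Figure D4:**
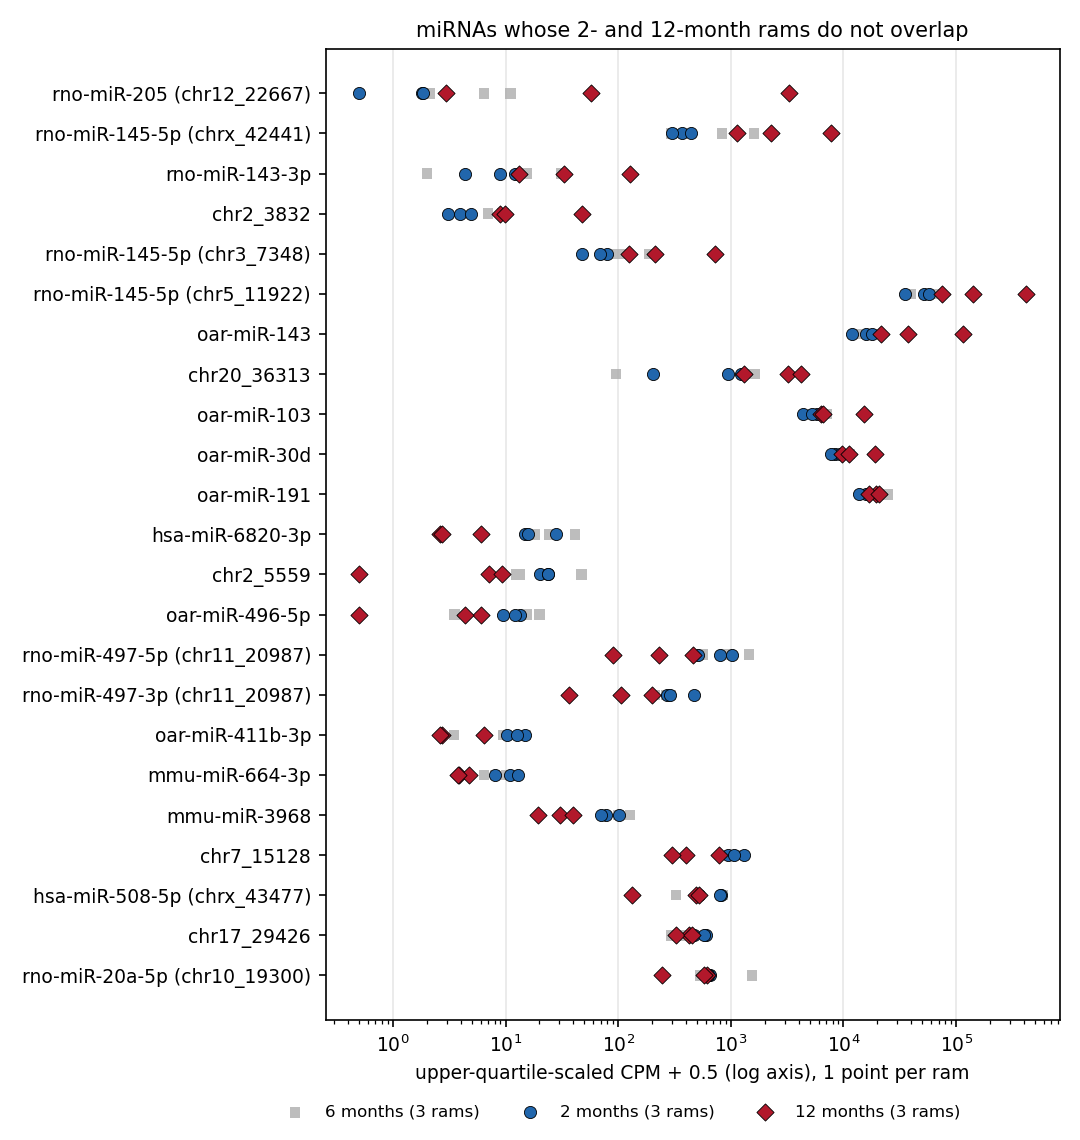
Levels of 23 named separating miRNAs in every ram, as upper-quartile-scaled CPM + 0.5 on a log axis, with 2 months in blue, 12 months in red and 6 months in grey. The upper rows are higher and the lower rows lower at 12 months. In many rows the nearest rams of the 2 ages almost touch.

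The separating miRNAs did not share an arm or class. Most precursors with both arms tested had no separating arm. Of the rest, 1 arm separated in 23. Both arms separated the same way in 2 (miR-497 and miR-628) and opposite ways in 1 (chr23_38620). Known sheep miRNAs separated in 4 (3.15%) higher and 2 (1.57%) lower, genome-predicted ones in 24 (2.77%) and 36 (4.16%) of 865, and those named in another species in 4 (2.11%) and 15 (7.89%) of 190. Fewer than 10 counts in some library were met in 12 of the 32 higher and 29 of the 53 lower miRNAs, against 44.1% of all tested. The median level was 36.1 CPM for the higher, 23.8 CPM for the lower and 41.7 CPM for all miRNAs. Just inside the limit lay chr10_19618 star, with 12-month levels up to 82.0 CPM against 2-month levels from 82.7 CPM. Just outside it lay chr9_17744, with 12-month levels up to 250 CPM against 2-month levels from 249 CPM.

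The rams of 6 months, which the description of the 2 ages did not use, were spread over both sides. Of the 32 higher miRNAs, 8 had all 3 rams of 6 months on the 2-month side, 1 had them on the 12-month side and 23 were split. The 1 was oar-miR-30d. Of the 53 lower miRNAs, 10 had all 3 rams on the 2-month side, 10 on the 12-month side and 33 were split. Those on the 2-month side included hsa-miR-6820-3p, mmu-miR-3968, miR-497-5p and chr7_15128.

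The differences of 56 miRNAs (4.74%) were carried by a single library. In these the mean levels differed by a log2 ratio over 1, and the ratio fell under 1.5-fold or changed sign when 1 ram was left out. The library was 12-month replicate 1 in 42 of them, of which 39 were higher at 12 months. In 9 it was 12-month replicate 2, in 2 it was 2-month replicate 1, and in 3 either of a pair of libraries sufficed. Only 2 miRNAs, chr10_18739 of miR-145-5p and rno-miR-3585-5p, both separated and were carried, which left 83 that separated and did not meet this definition. Of the 83, 46 had a log2 ratio of means of 1 or less and could not meet it, among them oar-miR-103, oar-miR-30d and miR-20a-5p, whose differences shrank without 12-month replicate 1. In the 39, 12-month replicate 1 was 1.85 to 537 times the next of the 6 libraries, with a median of 4.98 times, and in 35 it was the highest of all 9.

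The miRNAs of epithelia led this group. All 5 rows of the miR-200 family, which keeps epithelial cells in their state, were carried. The level of oar-miR-200a was 65.1, 312 and 54.4 CPM at 2 months and 32953, 80.6 and 56.0 CPM at 12 months. In the rams of 6 months it was 51.8, 845 and 1647 CPM, and 2 of these lay above all 2-month rams and above 12-month replicates 2 and 3. Its log2 fold change of 6.26 became -1.09 without 12-month replicate 1. The rows rno-miR-183-5p and rno-miR-96-5p, from 1 cluster of epithelia and sensory cells, had levels of 2109 and 2619 CPM in that ram and no more than 16.5 CPM in the other 5. Their cluster partner rno-miR-182 had 3892 CPM in that ram and 4.46 to 14.0 CPM in the others. It missed the definition because a log2 ratio of means of 0.703 was left without that ram. Of rno-miR-203a-3p, a miRNA of stratified epithelium, there were 44.3, 70.3 and 40.6 CPM against 1922, 67.8 and 36.0 CPM. Of the 7 rows in the list of other epithelial miRNAs, 3 were carried and 1, miR-205, separated. The log2 fold changes of the 7 ran from 0.569 to 10.3.

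Others of this group are known from body axis patterning and from gut and kidney epithelium. The Hox-cluster miRNA oar-miR-10a had 747.5, 887.6 and 455.9 CPM at 2 months against 17392, 922.3 and 870.7 CPM at 12 months. The Hox-cluster row miR-196a-5p (chr3_9129) had 18.2, 58.0 and 25.4 CPM against 2576, 10.6 and 33.4 CPM. For miR-192-5p (chr21_37559) the levels were 524, 1620 and 517 CPM against 6005, 627.6 and 696.3 CPM, and oar-miR-194 moved with it. A 6-month ram was also high in this pair, at 4883 CPM for miR-192-5p. The level of oar-miR-221, which acts on the cell cycle inhibitor p27, was 493.6, 1026 and 797.6 CPM against 5131, 935 and 1128 CPM. The genome-predicted chrx_43094 had 3607 CPM in that ram and 2.60 to 6.71 CPM in the other 5, and rno-miR-3553 had 2118 CPM against 1.78 to 4.69 CPM.

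**Figure D5:**
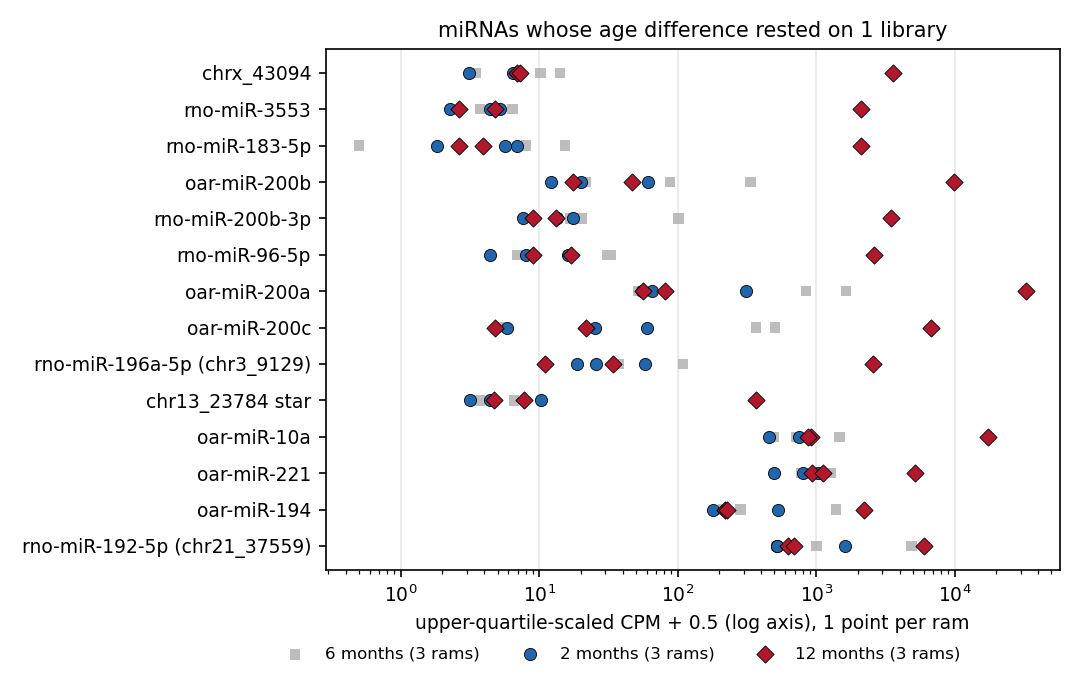
Levels of 14 named miRNAs carried by 1 library in every ram, as upper-quartile-scaled CPM + 0.5 on a log axis, with 2 months in blue, 12 months in red and 6 months in grey. A single 12-month ram stands to the right in each row, and the other 12-month rams lie among or close to the 2-month rams.

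In the mRNA of the same ram the epithelial keratin KRT8 was 219 CPM against 0.78 to 3.60 CPM in the other 5, CDH1, which joins epithelial cells, was 65.9 CPM against 0.48 to 9.81 CPM, and CRISP1, a secretory protein of the epididymis, was 158 CPM against 0 in every other ram. All 5 epithelial and epididymal genes present in the table were highest in it, and the summed level was 690 CPM against 79.1 to 156 CPM. The part of these cells in the miRNA differences was not tested.

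Other lists showed few or no separating miRNAs. Of the 15 rows of the let-7 family, which accompanies differentiation, 0 separated, and their median log2 fold change was 0.07. Of the 22 rows of miR-17-92 and its paralogs, 1 was lower, miR-20a-5p. No row separated in the striated muscle (5), erythroid (5), leukocyte (7), endothelial (3), neuron (7), Sertoli and gonad (9) and spermatogonia (10) lists, beside 7.19% of all miRNAs. At that share many lists this short would hold no separating row, so this is not read as a trait of the lists. The liver list had 0 tested rows. The leukocyte list had 1 carried row, miR-223-3p, with 304 CPM in 12-month replicate 1 and 29.9 to 77.2 CPM in the other 5. Both the Sertoli and gonad list and the spermatogonia list had 3 carried rows, which were miR-192-5p, oar-miR-194 and miR-215-5p in the first and oar-miR-221 with both arms of miR-222 in the second. A list name does not give the cells a row came from, and miR-192-5p and oar-miR-194 were placed above with gut and kidney epithelium.

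With 2-month replicate 1 and 12-month replicate 3 left out, edgeR again called 0 miRNAs, the smallest adjusted p was 0.228, and 151 had an unadjusted p under 0.05. The log2 fold change was then 2.01 for oar-miR-143, 2.19 for chr5_11922, 3.59 for chrx_42441, -2.33 for hsa-miR-6820-3p and -1.76 for mmu-miR-3968. The direction of every one of the 52 miRNAs named with a test was the same as with all libraries. This was largely fixed by how they were chosen. Those that separate with all libraries still separate with fewer, and those carried by 12-month replicate 1 keep that ram here.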

How the data were processed

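The authors deposited whole-number counts of small RNA reads per mature miRNA, and of mRNA reads per gene, without normalization. For miRNAs, filtered reads were mapped by the authors to sheep miRBase, the rest to the sheep genome Oar_v3.1 with miRDeep, and what remained with BWA to miRBase of human, rat and mouse. Ages came from the labels. Value columns that belong to no sample numbered 0. Here upper-quartile scaling was applied and the counts were tested with edgeR 4.0.16 (quasi-likelihood, R 4.3.3) in all 9 miRNA libraries, contrast 12 minus 2 months, on rows with 10 or more counts in at least 3 of the 6 libraries, with Benjamini-Hochberg adjustment and thresholds of 0.05 and 1.5-fold. EB-Seq, used by the authors, was not run. Ratios of means used a pseudocount of 0.5 CPM. The mRNA values are CPM, with library totals of 8657609 to 10937143 counts.

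Named miRNAs were the known sheep miRNAs that separated, the 8 largest fold changes and 5 highest levels in each direction, the 10 largest and 5 highest carried miRNAs with the known sheep ones, the 3 nearest each side of the separation limit, the 5 smallest p-values, and list members that separated or were carried. Others (such as chr18_31368, both chr7_14246 arms, mmu-miR-1957a, rno-miR-182, chr11_20985 and the X-linked run) were chosen after their values were seen. The members and lists were chosen with earlier results of these data known. The test was tested on simulated counts whose true log2 change was 2, and at the spread of these libraries it recovered 35.9% of 184 changed miRNAs among 1091 tested, and 97.8% of 183 among 1117 tested at a dispersion of 0.05. Alternatives were other scalings, DESeq2 1.42.0, other filters, identical sequences summed, the replicate number as a block, only the 6 libraries, no fold threshold, adjustment over known sheep miRNAs alone, each ram left out, and, added after seeing the data, 2 rams left out together. Tables and plots used Python 3.11.15, pandas 2.3.3, numpy 2.4.6 and matplotlib 3.10.9. Genome coordinates of the miRNAs were not used here.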

Additional observations from a re-analysis of the deposited data

How the results depend on the processing

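The count of 0 called miRNAs held under TMM, median-of-ratios and library-total scaling, with the 6 libraries alone, without a fold threshold, under edgeR's filter by age, with 10 counts in all 6 libraries, with identical sequences summed, with adjustment over the known sheep miRNAs alone (smallest adjusted p 0.609), and without each ram in turn (0 to 0). It did not hold with DESeq2, which called 2, or with no filter, where 41 of 7010 miRNAs were called, 20 of them with over 90% of their counts in 12-month replicate 1; the cause was not tested. Of the miRNAs tested, 0.931% separated as higher and 18.2% as lower under library totals, 1.57% and 1.88% with no filter, 4.54% and 2.79% under the filter by age, 3.33% and 2.87% with 10 counts in all 6 libraries, and 16.4% and 28.0% with both 2-month replicate 1 and 12-month replicate 3 left out. Without each ram in turn, the higher share ran from 4.15% (2-month replicate 3) to 10.7% (12-month replicate 2), and the lower share from 6.68% (2-month replicate 2) to 14.0% (2-month replicate 1), since fewer rams are easier to keep apart. The number carried ran from 49 (12-month replicate 1) to 131 (12-month replicate 3), and the cause was not tested. Carried miRNAs numbered 659 with no filter, 20 with 10 counts in all 6 libraries and 116 with the pair of libraries left out. With the replicate number as a block, 0 were called and 20 had an unadjusted p under 0.05, but the numbers do not pair the rams, which are different animals: correlations of same-numbered deviations were 0.06, -0.56 and 0.09, and 0 of 3 numbers matched best with their own. Of 799 values for 52 named miRNAs under alternatives, 765 kept direction and were not seen to change side of the threshold. Some of the 765 were DESeq2 values without an adjusted p, which have no side. Of the rest, 20 passed the threshold in addition (18 with no filter, 2 with DESeq2) and 14 changed sign. Under library totals oar-miR-191 became -0.16 and chr10_19333 -0.12 on the log2 scale. The other 12 changed sign without 12-month replicate 1, and without each ram in turn their log2 fold changes ran from -0.47 to 2.16 for oar-miR-194, -1.09 to 7.53 for oar-miR-200a, -0.061 to 7.68 for oar-miR-200b, -1.51 to 7.28 for oar-miR-200c, -0.42 to 2.23 for miR-192-5p (chr21_37559), -0.55 to 5.30 for miR-196a-5p (chr3_9129), -1.60 to 5.47 for miR-141-3p (chr3_9654), -1.42 to 6.04 for miR-215-5p (chr12_22345), -0.54 to 1.75 for miR-223-3p (chrx_42451), -0.034 to 4.26 for rno-miR-203a-3p, -0.28 to 7.13 for rno-miR-200b-3p and -0.41 to 7.94 for rno-miR-183-5p. A level of 3 counts, 0.61 to 6.36 CPM, limits what could be seen in low miRNAs.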
